A study of Mus musculus with 9 samples.

Results

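Messenger RNA of 47 cell cycle and DNA replication genes was followed in the dermis of mouse ears. The genes were taken by symbol from a count table of 52550 genes: 14 genes of DNA replication, 4 regulators of the G1/S transition and 29 genes of mitosis. All 47 symbols were found, and all 47 genes passed the filter on low counts that left 22430 genes for testing. The animals were wild type C57BL/6 mice of 8 weeks. The methods give them as male C57BL/6J mice. VAS+H2O was the control group, with vaseline on the ears for 5 days and ddH2O by gavage for 10 days. IMQ+H2O was the model group, with imiquimod cream, which induces a psoriasis-like inflammation, in place of vaseline. IMQ+XYF had the same cream and Xiao-Yin-Fang (XYF) in place of ddH2O. XYF, a herbal decoction, was labelled 23.3 mg/g and given at 200 µl per gavage, starting 5 days before the cream. Each group had 3 libraries, total counts ran from 28756305 to 79836881 per library, and the members took between 17423 and 87405 of these counts. The labels do not say whether the replicates came from separate animals, and the methods mention sheets of more than 1 mouse, so p-values measure the spread between these libraries only.

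A cell copies its genome in S phase and divides it in mitosis, and the genes of these phases are switched on in waves. The E2F factors drive the first wave, which holds the MCM helicase, its loaders and the enzymes that make deoxynucleotides. The MuvB complex with B-MYB and FOXM1 drives the later wave of mitotic genes through a promoter element called CHR. In resting skin most dividing cells lie in the basal layer of the epidermis and in hair follicles, and psoriasis is known for a rapid turnover of keratinocytes. In RNA from a whole tissue sheet, fewer dividing cells and less RNA per dividing cell cannot be told apart.

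Levels between genes were compared as CPM, the count scaled to the size of its library, per kb of annotated exon. The sliding clamp Pcna was highest, at 31.4 CPM per kb as the mean of 9 libraries, followed by the helicase subunit Mcm4 at 12.1. The licensing factor Cdc6 was lowest at 0.455 and the kinetochore protein Cenpf was next at 0.472. The highest mitotic gene was Mki67, whose product Ki-67 marks cycling cells, at 6.67 CPM per kb. The exons of 13 members overlap those of another annotated gene, and the use of strand in the counting was not stated. Gins2, a part of the replicative helicase, shares 2758 bases with Gse1 on the other strand, and Ube2c shares 592 bases with the muscle gene Tnnc2. Pcna has the processed copy Pcna-ps2, which drew 4857 counts in the 9 libraries. The copies Ccnb2-ps and Ccnb1-ps of the mitotic genes Ccnb2 and Ccnb1 drew 534 and 261 counts. Ccnb2 itself had 90 to 528 counts per library.

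The promoters were read to show what the members carry around their start sites. RefSeq promoter windows of GRCm38.p6, from 250 bases before the start to 50 after it, were found for 38 of the 47 members. Both strands were searched for the E2F words TTTCCCGC, TTTCGCGC, TTTGCCGC and TTTGGCGC and for the CHR words TTTGAA and TTCGAA. An E2F word was present in 7 of 12 replication genes (58.3%), in 0 of 3 G1/S regulators and in 1 of 23 mitotic genes (4.35%), against 2.6% of all 26994 genes with a window. A CHR word was present in 17 of 23 mitotic genes (73.9%) and in 2 of 12 replication genes (16.7%), against 21.7% of all genes. The short word CCAAT was found in 9 of 12 replication genes, 18 of 23 mitotic genes (78.3%) and 41.0% of all genes. The counts take the whole window and so include genes with the word only after the start, such as Cdt1 (E2F word at 33) and Plk1 (CHR word at 31). A match is a description of letters and no evidence of binding. The stretches below are the coding strand before the start site, shown because they hold these words (in capitals). Mcm5, Uhrf1, Mcm2 and E2f8 were called by edgeR in the comparison of IMQ+XYF with VAS+H2O and Top2a by DESeq2 alone, whereas Mcm6 and Kif11 were called by neither and stand for the words in uncalled genes of the 2 classes. They are given for Mcm5 (chr8:75109341-75109382, + strand), Mcm6 (chr1:128359730-128359830, - strand) and Uhrf1 (chr17:56304113-56304150, + strand, inside the annotated gene at an internal start). Those of Mcm2 (chr6:88898830-88898865, - strand), E2f8 (chr7:48881597-48881631, - strand), Top2a (chr11:99024192-99024383, - strand) and Kif11 (chr19:37376348-37376381, + strand) hold CHR words.
Mcm5: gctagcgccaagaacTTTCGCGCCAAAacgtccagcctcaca
Mcm6: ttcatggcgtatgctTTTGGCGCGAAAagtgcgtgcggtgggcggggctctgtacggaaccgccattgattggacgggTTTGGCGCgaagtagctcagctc
Uhrf1: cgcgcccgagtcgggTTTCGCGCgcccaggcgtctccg
Mcm2: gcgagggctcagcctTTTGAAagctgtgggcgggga
E2f8: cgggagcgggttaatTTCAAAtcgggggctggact
Top2a: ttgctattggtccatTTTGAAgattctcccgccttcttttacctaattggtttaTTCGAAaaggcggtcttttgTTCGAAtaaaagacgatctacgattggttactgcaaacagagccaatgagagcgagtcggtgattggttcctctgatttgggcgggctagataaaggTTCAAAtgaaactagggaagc
Kif11: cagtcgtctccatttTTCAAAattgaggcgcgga
The pair of E2F words in Mcm5 overlap each other and start at positions −153 and −149 from the start site. Mcm6 has 3 such words in 101 bases, of which those at −110 and −106 overlap each other, and Top2a has 4 CHR words in 192 bases. The word of Kif11 starts at −19 and that of E2f8 at −20.

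Members reached their highest level of the 9 libraries in IMQ+XYF replicate 1 for 35 of the 47 genes, and in IMQ+XYF replicate 3 for a further 8. VAS+H2O replicate 1 was the lowest of its group for 37 members, 25 of the 29 mitotic genes among them. IMQ+H2O replicate 2 was the highest of its group for 41 members. Marker genes of other cells moved between the same libraries. The 10 basal keratinocyte markers were all detected, and their summed level was 8477 CPM in IMQ+XYF replicate 1 against 2315 to 5255 CPM in the other 8 libraries. The 10 suprabasal markers reached 9937 CPM there against 1206 to 4041 CPM elsewhere. Krt5 and Krt14 held 2846 and 3367 CPM of the basal sum in that library. Krt15, Dst and Lamb3 of the basal list and Flg of the suprabasal list were not highest in it. By group the basal sum was 3036 to 5255 CPM in VAS+H2O, 2315 to 3159 CPM in IMQ+H2O and 2927 to 8477 CPM in IMQ+XYF. Of the 10 basal markers 9 had a negative log2 fold change in IMQ+H2O against VAS+H2O. The suprabasal sum was 1602 to 4041, 1206 to 1693 and 2523 to 9937 CPM in the same order. Every IMQ+XYF library thus lay above every IMQ+H2O library in the suprabasal sum. The sum of 8 stress keratin and related genes, which keratinocytes make in inflamed skin, was 230.2 to 381 CPM in VAS+H2O, 508 to 825 CPM in IMQ+H2O and 615.5 to 3131 CPM in IMQ+XYF. Fibroblast markers, which mark the dermis, summed to 11342 to 27857 CPM with all 9 detected, so the libraries labelled dermis held keratinocyte transcripts beside fibroblast transcripts. Neutrophil markers summed to 128 to 161 CPM in VAS+H2O, 379 to 902 CPM in IMQ+H2O and 234 to 663 CPM in IMQ+XYF. The 8 skeletal muscle markers summed to 280 to 1183, 581 to 1154 and 72.6 to 407 CPM in the same order, lowest in IMQ+XYF replicate 1. Every IMQ+XYF library lay below every IMQ+H2O library in the muscle sum. The 13 hair matrix and shaft markers, from the follicles where cells also divide, summed to 117 to 351 CPM in VAS+H2O, 13.8 to 36.6 CPM in IMQ+H2O and 19.2 to 33.7 CPM in IMQ+XYF. Of these markers edgeR called 8 lower in IMQ+H2O than in VAS+H2O, where 0.348% of all genes were called lower. The 8 cartilage markers summed to 1174 to 1985 CPM, 360.3 to 535 CPM and 648 to 1991 CPM in the same order, and the 8 endothelial markers to 641 to 1048 CPM, 1398 to 1499 CPM and 549.8 to 1314 CPM. Both lists thus had IMQ+H2O apart from the other groups. The 8 sebaceous gland markers summed to 8835 to 13306 CPM in VAS+H2O and 4513 to 7669 CPM in the other 6 libraries, while monocyte and macrophage markers (542 to 1010 CPM) and T cell markers (17.9 to 44.3 CPM) had overlapping groups. The part of these markers in the results on the members was not tested.

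**Figure D1:**
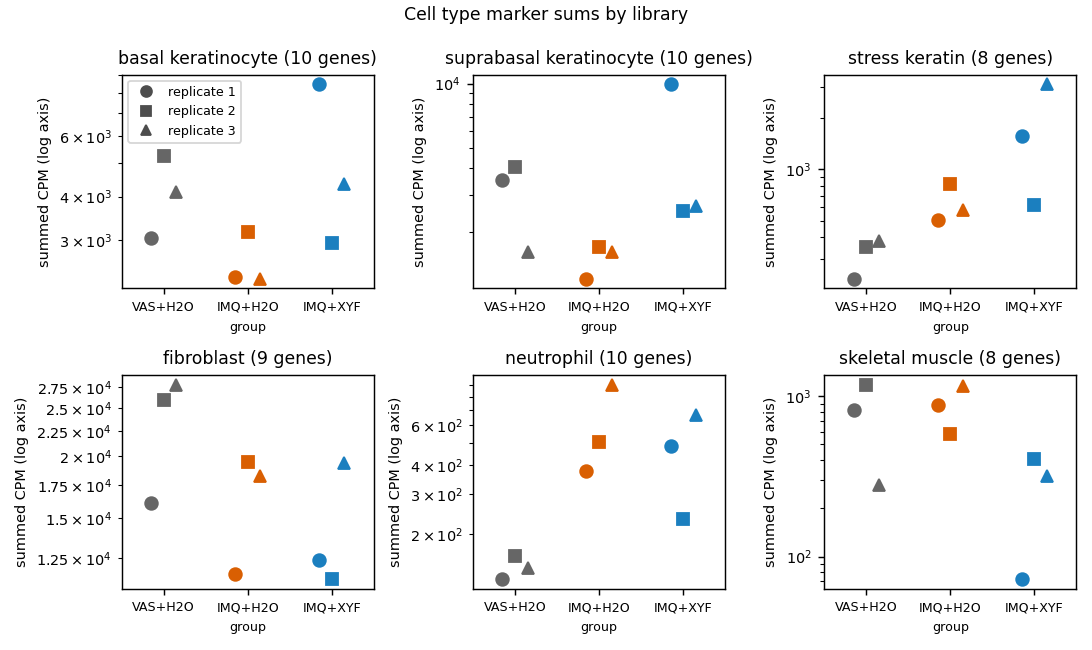
Summed CPM (log axis, TMM-scaled) of 6 marker lists in each of the 9 libraries; symbols give the replicate number and colours the group. IMQ+XYF replicate 1 stands above all other libraries for basal (8477 CPM) and suprabasal (9937 CPM) keratinocyte markers and below them for skeletal muscle markers (72.6 CPM).

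**Figure D2:**
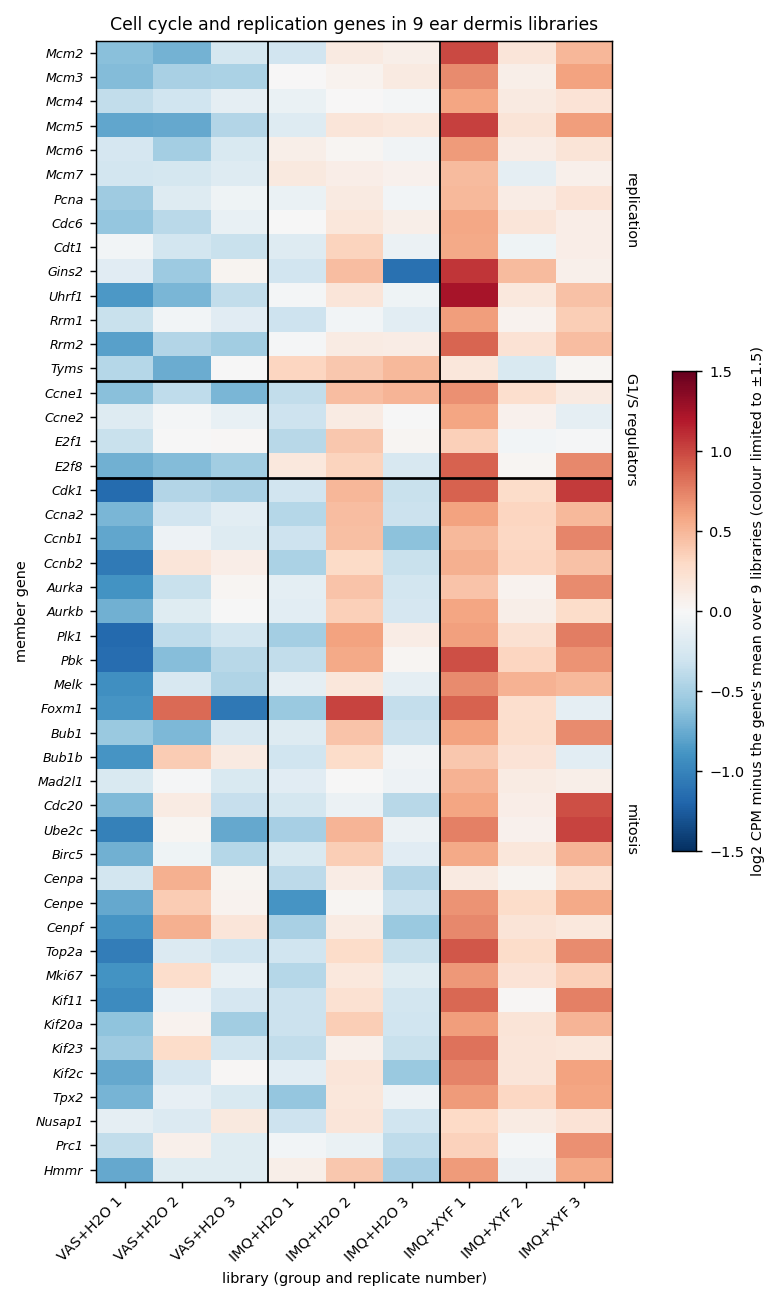
Log2 CPM of each of the 47 genes (rows, by class) minus its mean over the 9 libraries (columns), with red for higher and blue for lower levels and the colour limited to ±1.5. IMQ+XYF replicate 1 holds the highest of the 9 values for 35 genes and VAS+H2O replicate 1 the lowest of its group for 37.

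Imiquimod alone was compared with the control first. The model libraries lay above all control libraries for 9 of 14 replication genes, 2 of 4 G1/S regulators and 3 of 29 mitotic genes. None of the 47 members was called by edgeR's quasi-likelihood test, for which a call was a Benjamini-Hochberg adjusted p of 0.05 or lower and a log2 fold change of at least 1 in size. Of all tested genes 0.646% were called higher. DESeq2's Wald test with the same limits also called 0 members, where it called 2.49% of all genes higher. An unadjusted edgeR p under 0.05 was reached by 11 members, all higher (7 replication genes, 2 G1/S regulators and 2 mitotic genes), against 10.1% of all genes that were higher at this limit. For 14 members IMQ+H2O was higher without overlap of the groups, against 15.1% of all genes. By both measures the share of the 29 mitotic genes was below that of all genes. The median log2 fold change was 0.39 for replication genes, 0.43 for G1/S regulators and 0.28 for mitotic genes, beside −0.023 for all tested genes.

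Of the replication genes, Tyms, which makes thymidylate, had the smallest p of all members. Tyms was at 9.05, 7.28 and 12.2 CPM in VAS+H2O and 15.2, 16.1 and 16.97 CPM in IMQ+H2O. All 3 model libraries lay above the control libraries, at a log2 fold change of 0.76 ± 0.20 (SE) with an edgeR adjusted p of 0.0889. Mcm3, a subunit of the helicase, stood at 18.2, 20.3 and 20.6 CPM in the control and 28.8, 29.6 and 31.4 CPM in the model. Its groups were apart by more than their spread, yet the edgeR adjusted p was 0.0925 at a log2 fold change of 0.60 ± 0.16. Rrm2, the small subunit of ribonucleotide reductase, was at 9.53, 12.4 and 11.7 CPM against 16.5, 18.2 and 18.2 CPM, at a log2 fold change of 0.66 ± 0.18 with an edgeR adjusted p of 0.0995. Its partner subunit Rrm1 was at 36.8, 45.05 and 41.2 CPM against 37.4, 45.2 and 41.6 CPM. Those levels overlapped, and the log2 fold change of Rrm1 was 0.013 ± 0.15 with a 95% interval from −0.33 to 0.36. Mcm5 was at 12.6, 12.8 and 15.96 CPM and 19.01, 24.6 and 24.3 CPM without overlap, with an edgeR adjusted p of 0.123. Without the limit on the fold change, a rule added after seeing the data, DESeq2's Wald test passed 5 members at an adjusted p of 0.05: Tyms, Mcm3, Rrm2, Mcm5 and Ccne1. All 5 were higher, and by the same rule 1162 of the 22388 genes with a DESeq2 adjusted p were higher.

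Among the G1/S regulators, the cyclin gene Ccne1, which drives S phase entry, was at 2.09, 2.47 and 1.996 CPM in VAS+H2O and 2.48, 4.44 and 4.58 CPM in IMQ+H2O. E2f8, a repressor of the E2F family, was at 4.15, 4.34 and 4.74 CPM and 7.58, 8.59 and 5.79 CPM. Both genes had groups that did not overlap, with edgeR adjusted p of 0.148 and 0.146. The activator E2f1 and the cyclin gene Ccne2 had log2 fold changes of 0.14 ± 0.23 and 0.057 ± 0.22 with overlapping groups. Cdk1, the kinase that starts mitosis, and the kinase genes Pbk and Melk were the 3 mitotic genes without overlap. These 3 of 29 were a smaller share than the 15.1% of all genes. Their log2 fold changes were 0.67 ± 0.31, 0.83 ± 0.30 and 0.49 ± 0.21. Mki67 was at 34.4, 77.2 and 59.4 CPM in the control and 47.9, 71.6 and 56.4 CPM in the model. The control libraries spanned the whole range of the model libraries, and the log2 fold change of Mki67 was 0.041 ± 0.28, with a 95% interval from −0.59 to 0.67. The kinetochore genes Cenpa, Cenpe and Cenpf had negative log2 fold changes of −0.35 ± 0.24, −0.30 ± 0.32 and −0.33 ± 0.36, with overlapping groups. Without IMQ+H2O replicate 2 the median of the mitotic genes was 0.018, and without VAS+H2O replicate 1 it was 0.049, whereas the median of the replication genes stayed between 0.36 and 0.49 over the 9 fits that each left out 1 library.

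XYF was then compared with imiquimod alone, the comparison that asks what the decoction changed in treated ears. Of the 47 members 46 had a positive log2 fold change, with a median of 0.50 beside 0.0055 for all tested genes, but no single gene passed the test. edgeR's quasi-likelihood test called 0 members, as it called 0.00446% of all genes higher, and DESeq2's Wald test called 0 members, beside 0.698% of all genes. An unadjusted edgeR p under 0.05 was reached by 18 members, all higher (7 replication genes and 11 mitotic genes), against 6.35% of all genes. The groups did not overlap, with IMQ+XYF higher, for 16 members (6 replication genes and 10 mitotic genes), against 9.22% of all genes. The median was 0.40 for replication genes, 0.19 for G1/S regulators and 0.55 for mitotic genes. The number of members at an unadjusted p under 0.05 fell to 2 without IMQ+XYF replicate 1, to 3 without IMQ+H2O replicate 1 and to 8 without IMQ+H2O replicate 3.

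Rrm1 had the smallest p of the members, with 37.4, 45.2 and 41.6 CPM in IMQ+H2O and 71.4, 48.1 and 59.7 CPM in IMQ+XYF. The lowest treated library lay above the highest model library, at a log2 fold change of 0.53 ± 0.15 with an edgeR adjusted p of 0.364. Cdc20, an activator of the anaphase-promoting complex, was at 9.16, 10.4 and 8.27 CPM against 16.7, 11.9 and 21.5 CPM. Its groups did not overlap, and the log2 fold change was 0.85 ± 0.26 with an edgeR adjusted p of 0.364. Tpx2, which nucleates spindle microtubules, was at 6.37, 10.7 and 8.99 CPM against 14.8, 11.8 and 14.3 CPM, again without overlap, with an edgeR adjusted p of 0.379. Top2a, the enzyme that untangles chromosomes, was at 26.7, 39.7 and 26.1 CPM against 62.4, 39.7 and 53.5 CPM. The lowest treated library and the highest model library of Top2a were level, so the groups overlapped, and the edgeR adjusted p was 0.379. Melk was at 3.17, 3.93 and 3.18 CPM against 5.70, 5.003 and 4.87 CPM without overlap, with an edgeR adjusted p of 0.379. The kinetochore motor gene Cenpe, with a negative value under imiquimod alone, was at 3.86, 7.28 and 5.70 CPM against 11.3, 8.58 and 10.6 CPM and had a log2 fold change of 0.85 ± 0.32. Mki67 was at 47.9, 71.6 and 56.4 CPM against 101, 74.1 and 82.03 CPM, and its groups did not overlap at a log2 fold change of 0.55 ± 0.28 and an unadjusted p of 0.0810. Tyms was the single member with a negative log2 fold change, −0.40 ± 0.19, at 13.7, 10.4 and 12.4 CPM in IMQ+XYF, below every IMQ+H2O library. Its edgeR adjusted p was 0.451.

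The treated group was set against the control last, which shares its libraries with both comparisons above. Most of the edgeR calls were of replication genes: 7 of the 47 members were called, all higher in IMQ+XYF, where 0.695% of all genes were called higher. They were 5 of 14 replication genes (Mcm2, Mcm3, Mcm5, Uhrf1 and Rrm2), the G1/S regulator E2f8 and 1 of 29 mitotic genes (Melk). DESeq2's Wald test called 13 members, beside 1.92% of all genes higher, and added the mitotic genes Cdk1, Plk1, Pbk, Bub1, Ube2c and Top2a. All 47 log2 fold changes were positive, with a median of 0.77 beside −0.024 for all tested genes. An unadjusted edgeR p under 0.05 was reached by 33 members, against 9.58% of all genes that were higher at this limit, and the groups did not overlap for 33 members, against 11.7% of all genes. The class medians were 0.66 for replication genes, 0.63 for G1/S regulators and 0.79 for mitotic genes. The count changed with the libraries in the fit: edgeR called 0 members in a fit of only the 6 libraries compared, without IMQ+XYF replicate 1 or 3, without any 1 of the 3 VAS+H2O libraries or without IMQ+H2O replicate 2. It called 2 without IMQ+H2O replicate 1, 1 without IMQ+H2O replicate 3 and 13 without IMQ+XYF replicate 2. Over all alternatives the log2 fold changes of the 7 genes stayed positive, with the lowest values between 0.87 (Mcm2) and 1.08 (Mcm5). Without IMQ+XYF replicate 1, 25 members had an unadjusted edgeR p under 0.05 and 0 were called, and the median over the members was 0.63. The share of all genes at that limit in this fit is not given here.

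Mcm5 (chr8:75109569-75128439), whose product forms the gate of the helicase ring with that of Mcm2, was at 12.6, 12.8 and 15.96 CPM in VAS+H2O and 44.1, 24.7 and 33.4 CPM in IMQ+XYF. The lowest treated library was above the highest control library, at a log2 fold change of 1.31 ± 0.22 with an edgeR adjusted p of 0.0326. Mcm2 (chr6:88883474-88898780) was at 13.996, 13.3 and 18.1 CPM against 43.1, 24.7 and 30.6 CPM, at a log2 fold change of 1.12 ± 0.23 with an edgeR adjusted p of 0.0475. Mcm3 (chr1:20802968-20820312) was at 46.8, 30.2 and 43.4 CPM in the treated group, with the smallest p of the members and an edgeR adjusted p of 0.0273 at a log2 fold change of 1.03 ± 0.16. The other subunits of the ring also lay higher in every treated library than in any control library, with log2 fold changes of 0.59 ± 0.13 for Mcm4, 0.66 ± 0.15 for Mcm6 and 0.41 ± 0.15 for Mcm7, none of which was called. Uhrf1 (chr17:56303321-56323486), which directs the copying of DNA methylation behind the fork, was at 8.66, 9.81 and 12.2 CPM against 36.98, 17.6 and 21.3 CPM. Replicate 1 alone carried much of that mean, and the edgeR adjusted p was 0.0490 at a log2 fold change of 1.31 ± 0.27. Rrm2 (chr12:24708241-24714146) was at 30.6, 19.5 and 22.99 CPM in IMQ+XYF, at a log2 fold change of 1.12 ± 0.18 with an edgeR adjusted p of 0.0300. Rrm1 had a log2 fold change of 0.54 ± 0.15, so the small subunit differed more than the large subunit in fitted size, a difference that was not tested. E2f8 (chr7:48866429-48881596) was at 4.15, 4.34 and 4.74 CPM against 12.6, 6.98 and 11.3 CPM, with an edgeR adjusted p of 0.0467 at a log2 fold change of 1.22 ± 0.24. Its exons share 610 bases with the gene Gm2788 on the other strand. Melk (chr4:44300876-44364675), a kinase of proliferating cells, was at 1.84, 2.95 and 2.55 CPM against 5.70, 5.003 and 4.87 CPM. The 3 treated libraries lay close together, and the edgeR adjusted p was 0.0453 at a log2 fold change of 1.09 ± 0.21. Coordinates are those of GRCm38.

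**Figure D3:**
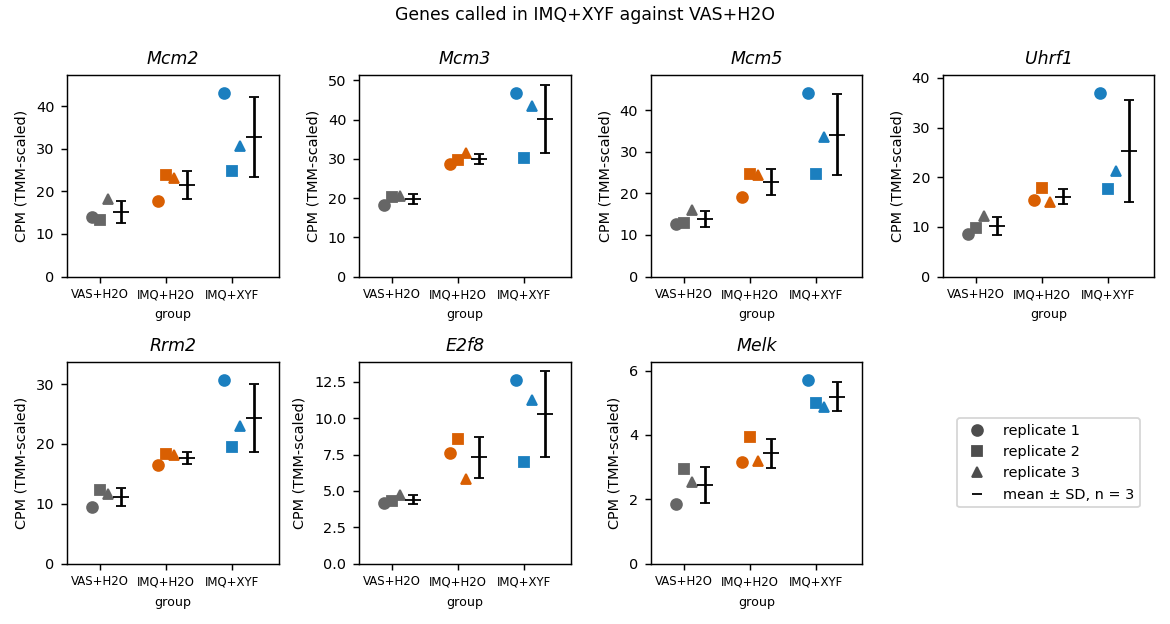
TMM-scaled CPM of the 7 genes called by edgeR in IMQ+XYF against VAS+H2O, with a symbol per library and the mean ± SD (n = 3) beside each group. All treated libraries lie above all control libraries, and IMQ+XYF replicate 1 is the highest of the 9 for each of the 7 genes.

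The SE of the log2 fold change in this comparison had a median of 0.28 over the mitotic genes and of 0.19 over the replication genes. Cdk1 was at 3.25, 5.34 and 5.16 CPM in VAS+H2O and 13.4, 8.72 and 15.02 CPM in IMQ+XYF, at a log2 fold change of 1.43 ± 0.31 with an edgeR adjusted p of 0.0569. Its groups did not overlap, and DESeq2's adjusted p was 0.000423. The kinase genes Pbk and Plk1 had log2 fold changes of 1.38 ± 0.30 and 1.11 ± 0.33, with edgeR adjusted p of 0.0585 and 0.122. Aurka, the kinase of the spindle poles, was at 0.77 ± 0.30, and Aurkb, the kinase of the chromosomal passenger complex, at 0.60 ± 0.25 on the log2 scale. The cyclin genes Ccna2, Ccnb1 and Ccnb2 had log2 fold changes of 0.84 ± 0.25, 0.84 ± 0.30 and 0.60 ± 0.33, and the 4 genes of cyclins and Cdk1 all had groups that did not overlap. The list of spindle checkpoint and anaphase-promoting complex genes, to which Birc5 was added, held genes with and without overlap. Bub1 (1.01 ± 0.26), Ube2c (1.17 ± 0.37), Birc5 (0.81 ± 0.24) and Mad2l1 (0.41 ± 0.15) had groups that did not overlap. Cdc20 (0.86 ± 0.26) and the checkpoint kinase gene Bub1b had overlapping groups. Bub1b was at 6.77, 16.3 and 13.8 CPM against 16.6, 14.4 and 11.2 CPM. The motor genes Kif11, Kif20a and Kif2c and the spindle genes Tpx2 and Hmmr had log2 fold changes from 0.76 to 0.97 without overlap, and Kif23, Prc1 and Nusap1 had overlapping groups. Top2a was at 16.01, 28.5 and 26.8 CPM against 62.4, 39.7 and 53.5 CPM, at a log2 fold change of 1.13 ± 0.27 with an edgeR adjusted p of 0.0705. The other 4 genes of centromere and chromosome had overlapping groups, and Cenpa stood at 0.0027 ± 0.24 on the log2 scale.

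**Figure D4:**
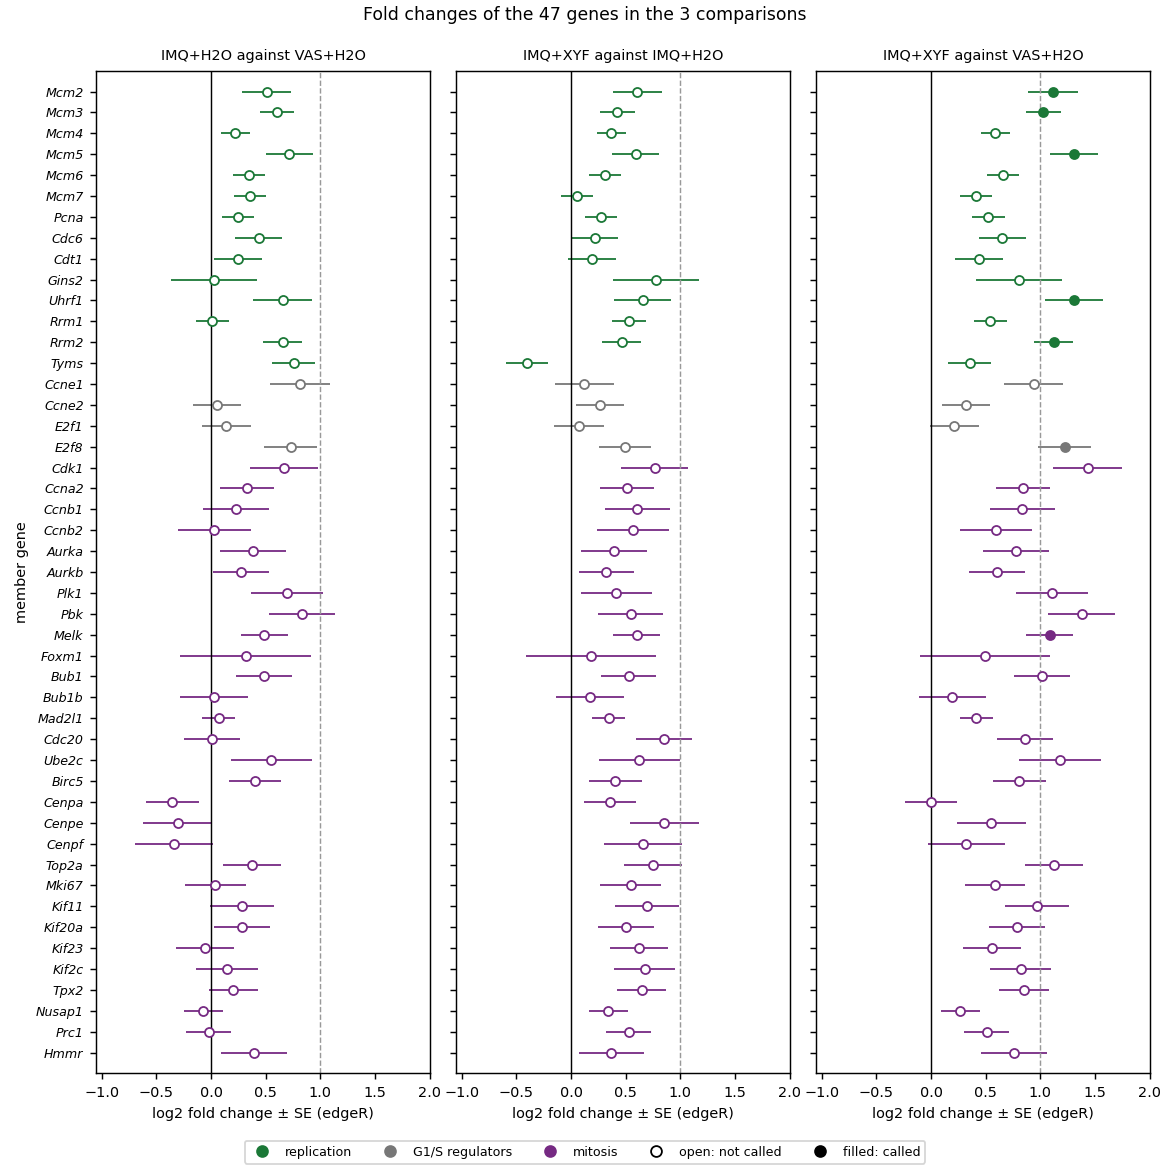
Log2 fold change ± SE from edgeR of each of the 47 genes in the 3 comparisons; filled points are called, open points are not, colours give the class and the dashed line is a log2 fold change of 1. All 7 called genes stand in IMQ+XYF against VAS+H2O, while in IMQ+H2O against VAS+H2O the 14 replication genes lie above 0 and 6 of the 29 mitotic genes below it.

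Replication and mitosis were then compared over the 9 libraries by class scores, the mean over a class of log2 CPM centred on each gene's mean. The replication score was −0.48, −0.45 and −0.23 in VAS+H2O, −0.069, 0.16 and −0.030 in IMQ+H2O and 0.71, 0.10 and 0.28 in IMQ+XYF. The control libraries lay below both other groups, whereas IMQ+XYF replicate 2 lay inside the range of IMQ+H2O. The mitosis score was −0.76, −0.025 and −0.22 in VAS+H2O, −0.33, 0.29 and −0.28 in IMQ+H2O and 0.62, 0.19 and 0.50 in IMQ+XYF. The control and the model overlapped in this score, and every treated library lay above every control library. The treated group and the model overlapped as well, with IMQ+XYF replicate 2 at 0.19 below IMQ+H2O replicate 2 at 0.29. The mitosis score minus the replication score was 0.054 ± 0.36 (SD, n = 3) in VAS+H2O, −0.13 ± 0.22 in IMQ+H2O and 0.072 ± 0.16 in IMQ+XYF. The 3 groups overlapped in this difference. With the 9 genes Mcm2 to Mcm7, Pcna, Rrm1 and Rrm2 as the replication class, the same difference was 0.067 ± 0.32, −0.11 ± 0.28 and 0.047 ± 0.12. Between group comparisons, the median of the mitotic genes minus that of the replication genes was −0.12 for IMQ+H2O against VAS+H2O, 0.15 for IMQ+XYF against IMQ+H2O and 0.13 for IMQ+XYF against VAS+H2O. The last value was −0.032 without IMQ+XYF replicate 3.

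**Figure D5:**
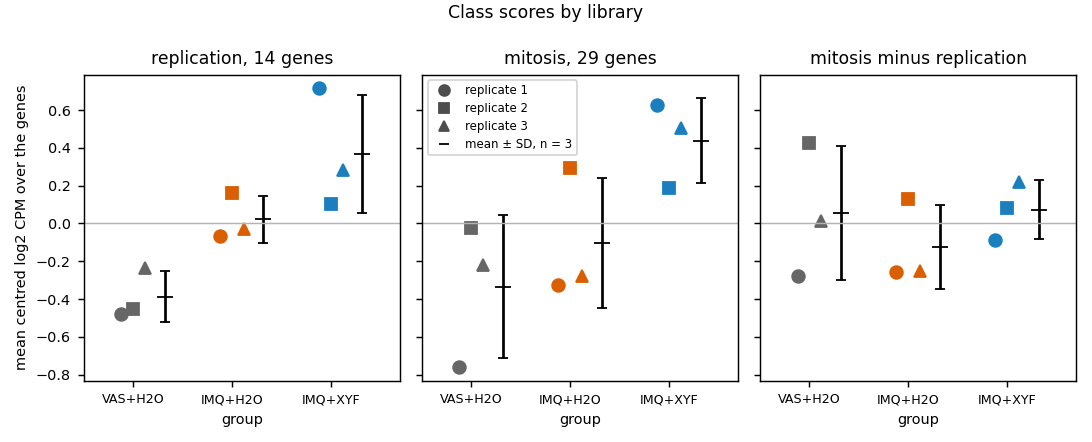
Mean centred log2 CPM per library of 14 replication genes (left), of 29 mitotic genes (middle) and their difference (right), with the mean ± SD (n = 3) beside each group. The 3 groups follow each other upward in replication, with 0.10 in IMQ+XYF replicate 2 inside the range of IMQ+H2O. In mitosis IMQ+H2O overlaps with both VAS+H2O and IMQ+XYF, and all groups overlap in the difference.

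Replicates agreed more closely on replication than on mitotic genes. The SD of log2 CPM within groups had a median of 0.22 over the 14 replication genes and 0.38 over the 29 mitotic genes. Its lowest value was that of the checkpoint gene Mad2l1, at 0.16, and Mcm4 had 0.16 as well. Foxm1, the factor that activates mitotic genes, had the highest at 0.83, with 3.06, 10.2 and 2.69 CPM in VAS+H2O, 3.86, 11.4 and 4.43 CPM in IMQ+H2O and 10.4, 6.73 and 5.16 CPM in IMQ+XYF. Its replicate 2 was about level in the control and the model, and each group held high and low libraries. Among replication genes Gins2 had the highest SD, 0.56, with 9.85, 16.5 and 5.56 CPM in IMQ+H2O. The licensing genes Cdt1 and Cdc6 were at 8.60, 5.55 and 6.23 CPM and 3.46, 2.62 and 2.48 CPM in IMQ+XYF, and Pcna was at 51.2, 64.9 and 70.7, 68.9, 81.3 and 71.99 and 104, 80.1 and 85.3 CPM in the order of the groups. Pcna overlapped between the control and the model and not between the control and IMQ+XYF, where its log2 fold change was 0.53 ± 0.15.

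Other genes of the same pathways were counted in 5 further lists, and edgeR called 0 genes of any list in any comparison. Of 44 other replication genes, 6, 14 and 25 were higher at an unadjusted p under 0.05 in the comparisons of imiquimod with control, of XYF with imiquimod and of XYF with control. Of all tested genes 10.1%, 6.35% and 9.58% were higher at this limit, so the first count was near the background. The medians of the list were 0.14, 0.25 and 0.37. Of 60 other mitosis genes, 5, 21 and 34 were higher at that limit, with medians of 0.13, 0.41 and 0.57. In the comparison of imiquimod with control 5 of them were also lower at that limit, against 10.8% of all genes, and neither share of the list exceeded that of all genes. In both lists the treated group against the control gave the largest median. DESeq2's Wald test called 3 of the other replication genes in IMQ+XYF against VAS+H2O. They were the origin binding gene Orc1 (edgeR log2 fold change 1.43 ± 0.34), Mcm10 (1.13 ± 0.27) and the licensing inhibitor gene Gmnn (0.999 ± 0.26). As these estimates are those of edgeR, that of Gmnn lies under the limit of 1 although DESeq2 called it. DESeq2 called 7 of the other mitosis genes there, which were Nuf2, Cdca5, Cenpm, Kif4, Kif18b, Cdca8 and Mybl2, the gene of B-MYB. edgeR gave Mybl2 an adjusted p of 0.0411 at a log2 fold change of 0.99 ± 0.19, just under the limit of 1, and the ligase gene Lig1 an adjusted p of 0.0493 at 0.63 ± 0.13. Anln, which builds the cleavage furrow, had the smallest p of the mitosis list in IMQ+XYF against IMQ+H2O, at a log2 fold change of 0.78 ± 0.12 with an edgeR adjusted p of 0.328.

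The other 3 lists held G1 regulators, inhibitors and repair genes. Of 24 genes of G1 cyclins, their kinases and the Rb and E2F families, the medians were −0.040, 0.22 and 0.11 in the 3 comparisons. DESeq2's Wald test called Tfdp2, a partner of E2F factors, lower in IMQ+H2O than in VAS+H2O, at an edgeR log2 fold change of −1.54 ± 0.43 and adjusted p of 0.105. It called E2f7, the relative of E2f8, higher in IMQ+XYF than in VAS+H2O, at 1.30 ± 0.38 and 0.115. Of the 17 tested genes of Cdk inhibitors and p53 targets, 13 had negative values in IMQ+H2O against VAS+H2O, with a median of −0.20. There 4 genes were lower at an unadjusted edgeR p under 0.05, against 10.8% of all genes, and 1 was higher. The medians were 0.21 for IMQ+XYF against IMQ+H2O, where 11 values were positive and 4 genes were higher at an unadjusted p under 0.05 against 6.35% of all genes, and −0.0091 for IMQ+XYF against VAS+H2O. In the last comparison 4 genes were lower at that limit, beside 1964 of all 22430 tested genes, and 1 was higher. In IMQ+H2O against VAS+H2O the smallest p was that of Cdkn2c, an inhibitor of Cdk4 and Cdk6, at a log2 fold change of −0.85 ± 0.17 with an edgeR adjusted p of 0.0539. Of 19 S-phase DNA repair genes, 2, 3 and 7 were higher at an unadjusted p under 0.05 in the 3 comparisons, beside 10.1%, 6.35% and 9.58% of all genes, and the medians were 0.059, 0.36 and 0.28. The first count was at the background. DESeq2's Wald test called Exo1 (edgeR log2 fold change 1.31 ± 0.32) and Brip1 (1.03 ± 0.31) higher in IMQ+XYF than in VAS+H2O.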

How the data were processed

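Messenger RNA was sequenced from the dermis of mouse ears in 9 libraries. The deposited table holds whole-number read counts per Ensembl gene, with no normalization by the authors. According to the study's methods and the submitters' processing notes, reads were aligned with STAR 2.5 to GRCm38 and counts were tested with DESeq2 (listed as DESeq 1.22.1). The counting tool, its use of strand and its treatment of reads with several alignments are not given in the sources used here. The 47 members and all gene lists were chosen with earlier results of these data known.

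edgeR 4.0.16 (R 4.3.3) was used for the main tests. filterByExpr kept 22430 of the 52550 genes, and TMM gave the scaling factors of the libraries. A single quasi-likelihood model was fitted to the 9 libraries, with a term for each group and a common biological coefficient of variation of 0.296. Tests were two-sided and p-values were adjusted over all tested genes by the Benjamini-Hochberg method. A call needed an adjusted p of 0.05 or lower together with an absolute log2 fold change of 1 or higher, as in the methods. DESeq2 1.42.0, the tool of the authors, was run as an alternative. The SE of a log2 fold change is its size over the root of F. Class scores used log2 CPM with a prior count of 2. Every member might be named, and per-library values are given for called members and for the 5 members with the smallest p in each comparison, and for further members where a class is described. From the other lists, called genes and up to 3 genes with the smallest p in each comparison were named. The scripts were tested on simulated data. Alternatives were other scaling factors, no filter, fits of 2 groups, a replicate block, each library left out and, added after seeing the data, DESeq2 without a limit on the fold change. No member was at 0 in any library, and precision at these depths covers counting error only.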

Additional observations from a re-analysis of the deposited data

How the results depend on the processing

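The medians of the members, of the replication genes and of the mitotic genes kept a positive sign in every comparison under every alternative that was run. The counts of called members did not hold in IMQ+XYF against VAS+H2O. Against 7 in the main analysis, DESeq2's Wald test called 13, the fit with no filter on low counts called 3, and the fit of only the 6 libraries of the 2 groups called 0. With the replicate block edgeR called 0 members, and upper-quartile factors gave 10. Leaving out 1 library gave 0 to 13. DESeq2 without a limit on the fold change passed 26 members there and 5 in IMQ+H2O against VAS+H2O, all higher. By that rule 1330 of 20214 and 1162 of 22388 genes with a DESeq2 adjusted p were higher in the same order. The edgeR fits with fewer calls among members also had fewer calls among all genes, down to 12 genes without VAS+H2O replicate 2. The cause of these changes was not tested. The correlations of same-numbered libraries between groups ran from −0.18 to 0.12, and not every library correlated best with its own number. They gave no ground for pairing by number. With 3 libraries a group they cannot exclude it, since other differences between libraries enter them too. These correlations were read after the counts of the fits with the block were known. The block changed no other call, and it lowered the members at an unadjusted p under 0.05 in IMQ+XYF against IMQ+H2O from 18 to 11. The share of all genes at that limit with the block is not given here. The mitosis minus replication median in IMQ+XYF against IMQ+H2O ran from 0.016 to 0.39 when 1 library was left out, the highest without IMQ+H2O replicate 2. Alternatives for single members were run where the unadjusted edgeR p was under 0.05, and most of these members were not called in the main analysis. Of these alternatives, 844 kept their direction and side of the threshold, 15 gained a call, 71 lost one and none turned its direction. All 71 losses were of the 7 called genes, each of which kept its call in only 4 to 7 of 15 alternatives. Each group had 3 libraries, which limits the precision of every value.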
